A study of Mus musculus with 19 samples.

Results

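Tau is phosphorylated by proline-directed kinases, among them glycogen synthase kinase 3 (GSK3) and cyclin-dependent kinase 5 (CDK5), and by kinases of its microtubule-binding repeats, the microtubule affinity-regulating kinases (MARK). The tau-tubulin kinases (TTBK) add phosphate at further sites. The RNA levels of 10 genes of this group were read out of 55487 genes in the mouse cerebral cortex: the GSK3 genes Gsk3a and Gsk3b, the kinase Cdk5 with its activators Cdk5r1 and Cdk5r2, the MARK genes Mark1, Mark2, Mark3 and Mark4, and Ttbk1. The genes were chosen by name, and all 10 were among the 19105 genes that passed the expression filter.

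The tissue came from male mice, 41 weeks old, of the genotype P301S/E4, a tauopathy model named for the P301S change in tau and the E4 form of apolipoprotein E. Of 19 libraries, 10 came from mice given lemborexant, an antagonist of both orexin receptors, as a 30 mg/kg gavage each day at zeitgeber time (ZT) 13, begun at 7.5 months and ended at 9.5 months. The other 9 came from mice given the vehicle, 0.5% methylcellulose, on the same schedule. Every library of both treatments is labelled P301S/E4, and the promoter that drives the tau transgene is not given in the sources used here. The labels do not tie libraries to individual mice, so a p-value here reflects only the spread from library to library, which may be technical.

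GSK3 is active in resting cells and is held back by phosphorylation near its amino terminus, downstream of insulin and growth factor signalling. CDK5 has no activity alone: it needs p35, encoded by Cdk5r1, or p39, encoded by Cdk5r2, and in neurons the protease calpain can cleave p35 to the longer-lived p25. MARK kinases phosphorylate the repeats by which tau binds microtubules, and TTBK1 is found mainly in neurons. These kinases are regulated largely at the protein level, which RNA levels do not measure.

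Some properties of the libraries bear on every value. To begin with, 3 pairs of lemborexant libraries were nearly alike: libraries 1 and 10, 3 and 8, and 4 and 9 had chi-square values per degree of freedom of 3.08, 3.43 and 3.66 between their counts, against 12.2 for the next closest pair of any kind, so results are also given with each pair summed, which leaves 16 units. Next, 4 libraries, lemborexant 1 and 10 and vehicle 1 and 4, held less than 1 CPM (counts scaled to library size with TMM factors) of Cst7, a gene of disease-associated microglia, where the other 15 held 16.4 to 146 CPM. Last, the share of reads on transcripts with an effective length over 4000 bases varied between 9.28% and 17.1%. It lay under 12% in lemborexant 6 and in vehicle 3, 4 and 5, where ribosomal RNA took 5.49% to 6.90% of the reads, against 2.40% to 4.68% in the other 15. Estimated reads assigned to genes numbered 20185098 to 31795633 per library. All 10 neuronal and all 10 excitatory-neuron markers averaged at least 1 CPM.

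The 10 genes lie on 8 chromosomes (build GRCm38). Gsk3a (ENSMUSG00000057177) is at chr7:25228258-25237851 and Mark4 (ENSMUSG00000030397) at chr7:19424775-19458821, both on the minus strand. Cdk5r2 (ENSMUSG00000090071) is at chr1:74854934-74857732 on the plus strand, and Mark1 (ENSMUSG00000026620) at chr1:184896789-184999570 on the minus strand. Gsk3b (ENSMUSG00000022812) is at chr16:38089001-38246084, plus strand, and Cdk5 (ENSMUSG00000028969) at chr5:24418241-24423530, minus strand. Cdk5r1 (ENSMUSG00000048895) is at chr11:80477023-80481184, plus strand, and Mark3 (ENSMUSG00000007411) at chr12:111574523-111656221, plus strand. Mark2 (ENSMUSG00000024969) is at chr19:7275396-7341860 and Ttbk1 (ENSMUSG00000015599) at chr17:46442448-46487675, both on the minus strand. Gsk3a overlaps the antisense gene 9130221H12Rik, which averaged 1.77 CPM beside 23.7 CPM for Gsk3a, and Ttbk1 overlaps the antisense gene Gm47119, at 0.0702 CPM beside 13.1 CPM. Since no strand setting is given, reads of a gene and its antisense partner cannot be told apart.

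Promoter windows, from 250 bases before to 50 after the start of the gene, were found in RefSeq (GRCm38.p6) for 7 of the 10 genes, with 10 windows in all. The 3 below are those of Gsk3b and Ttbk1, whose levels varied together from library to library, and of Gsk3a, the paralogue of Gsk3b. Capitals mark the GC box GGGCGG on either strand. The windows are Gsk3b at chr16:38088751-38089050 (plus strand), Ttbk1 at chr17:46487626-46487925 (minus strand) and Gsk3a at chr7:25237802-25238101 (minus strand), each written 5′ to 3′ along the gene.
Gsk3b: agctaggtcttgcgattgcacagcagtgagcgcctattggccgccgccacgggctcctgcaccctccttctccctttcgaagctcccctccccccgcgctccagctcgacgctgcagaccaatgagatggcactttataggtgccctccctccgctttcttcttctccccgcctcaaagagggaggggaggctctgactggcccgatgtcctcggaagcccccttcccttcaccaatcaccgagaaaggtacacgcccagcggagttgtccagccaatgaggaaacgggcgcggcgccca
Ttbk1: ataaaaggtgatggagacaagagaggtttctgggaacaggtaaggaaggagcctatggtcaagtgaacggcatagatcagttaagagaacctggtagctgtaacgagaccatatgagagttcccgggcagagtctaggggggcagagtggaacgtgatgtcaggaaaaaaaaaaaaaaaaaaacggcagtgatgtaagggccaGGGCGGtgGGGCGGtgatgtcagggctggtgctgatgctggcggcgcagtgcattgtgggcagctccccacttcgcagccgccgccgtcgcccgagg
Gsk3a: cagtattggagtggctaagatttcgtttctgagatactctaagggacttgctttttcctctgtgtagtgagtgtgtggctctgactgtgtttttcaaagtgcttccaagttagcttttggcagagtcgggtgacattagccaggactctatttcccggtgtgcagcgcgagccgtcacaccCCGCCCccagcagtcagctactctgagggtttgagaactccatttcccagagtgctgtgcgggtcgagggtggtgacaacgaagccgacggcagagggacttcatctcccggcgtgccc
The Gsk3b window held no GC box, that of Ttbk1 held 2 and that of Gsk3a held 1; 35.7% of 32851 mouse promoter windows of this length held at least 1. The G and C content was 63.0%, 55.0% and 54.3% in this order, against a median of 52.7% over all windows. Neither the cAMP response element TGACGTCA (in 1.79% of windows) nor the E-box CACGTG (in 7.15%), both searched on both strands, occurred in any of the 10 windows of the group, and neither of these motifs overlaps the GC box in its letters. These matches are letters in a window and say nothing of whether a factor binds there.

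Per length of transcript, Cdk5 was the most abundant member and Ttbk1 the least. In TPM, the deposited length-normalised unit, Cdk5 averaged 139 ± 15.7 and Gsk3b 87.1 ± 27.4 (SD, n = 19 here and for the levels that follow). Mark3 averaged 24.5 ± 4.03, Mark2 18.9 ± 4.40, Gsk3a 17.0 ± 1.65 and Cdk5r1 16.6 ± 2.01 TPM. Mark1 averaged 6.79 ± 1.72, Cdk5r2 5.77 ± 0.90, Mark4 3.63 ± 0.56 and Ttbk1 2.53 ± 0.60 TPM. The steps of Cdk5 over Gsk3b, Gsk3b over Mark3, Cdk5r1 over Mark1, and Cdk5r2 over Mark4 held in all 19 libraries. Between the steps the neighbours traded places. Mark3 was above Mark2 in 16 libraries, Mark2 above Gsk3a in 12, Gsk3a above Cdk5r1 in 10, Mark1 above Cdk5r2 in 14 and Mark4 above Ttbk1 in 17, so these neighbours did not keep an order across libraries. Mark1 was above Cdk5r2 in 10 of 10 lemborexant and 4 of 9 vehicle libraries, and Mark2 was above Gsk3a in 8 of 10 lemborexant and 4 of 9 vehicle libraries.

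**Figure D1:**
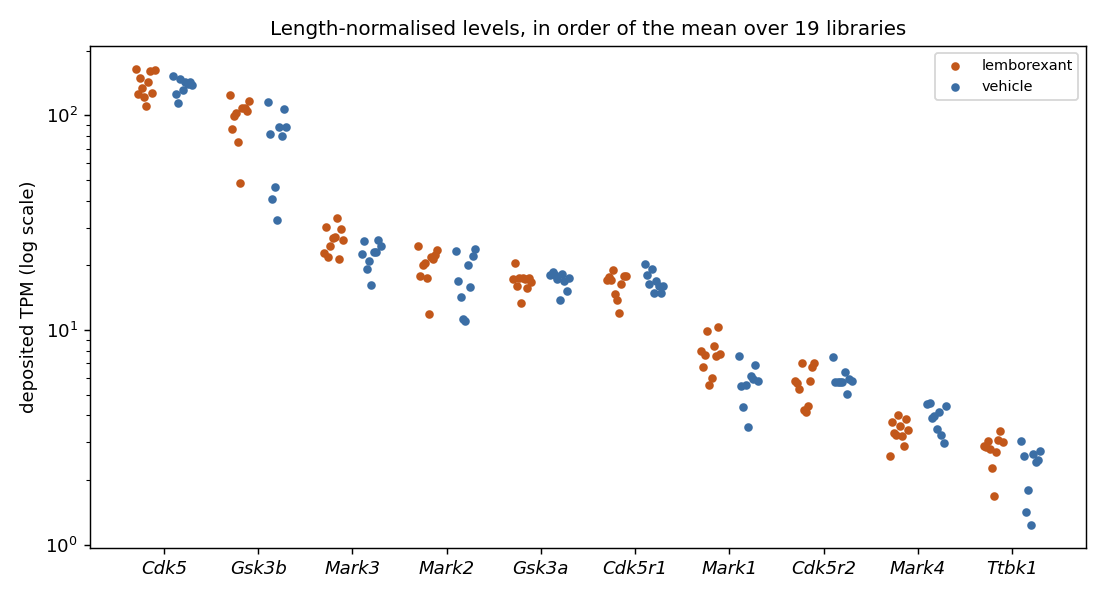
Deposited TPM (log scale) of each member in every library, in order of the mean over 19 libraries, with lemborexant libraries left of vehicle libraries. Cdk5 and Gsk3b stand above the others, at means of 139 and 87.1 TPM, and Ttbk1 is lowest at 2.53 TPM.

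After lemborexant, no member passed the threshold of 0.05 in edgeR's quasi-likelihood test with Benjamini-Hochberg adjustment, in which 2.61% of all genes were called (0.953% higher and 1.65% lower). The ranges of the treatments overlapped for all 10 members, while 0.199% of all genes had ranges that did not overlap. At an unadjusted p under 0.05 stood 6 of the 10 members, against 25.7% of all genes. Of these, 5 had lower and 1 a higher fitted level after lemborexant, against 13.5% and 12.2% of all genes. This number of members depended on the setting. It was 4 with the nearly alike pairs summed (21.3% of all genes) and 3 with the long-transcript share as a covariate (23.8%). It was 2 without the libraries under 12% long transcripts (13.2%) and 2 with limma on log2(TPM + 1) (29.6%). DESeq2 called 2, Cdk5r2 and Mark4, both lower, where it called 9.48% of all genes (5.32% lower). With the nearly alike pairs summed edgeR called 0% of all genes, and with the long-transcript share as a covariate it called 1.3% and no member. The median fitted log2 change was -0.16 over the members and 0.03 over all genes tested.

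The GSK3 genes lay on opposite sides of no change. Gsk3a, which encodes the alpha isoform, had 18.4, 21.2 and 27.9 CPM (lowest, median and highest) in lemborexant libraries, against 19.6, 25.0 and 32.9 CPM in vehicle libraries. Only 2 lemborexant libraries lay below the lowest vehicle library, and the 4 libraries with the most Gsk3a were the 4 with under 12% of reads on long transcripts. Its mean was 21.7 ± 2.73 CPM in lemborexant and 25.9 ± 4.22 CPM in vehicle libraries (SD, n = 10 and 9, as for all members below). The fitted log2 change was -0.25, with an SE of 0.10 and an edgeR adjusted p = 0.125.

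Gsk3b, the beta isoform and the more abundant one here, had 307, 484 and 580 CPM in lemborexant libraries, against 247, 446 and 562 CPM in vehicle libraries. The lowest lemborexant value was that of library 6 and the 3 lowest vehicle values those of libraries 5, 3 and 4, the same 4 libraries with little long transcript, while the highest values of both treatments came from libraries with Cst7 below 1 CPM. The means were 462 ± 80.2 and 411 ± 103 CPM in lemborexant and vehicle libraries, a log2 change of 0.17 ± 0.14 (edgeR adjusted p = 0.456) with a 95% interval of -0.13 to 0.48. With the long-transcript share as a covariate the change was -0.035 (edgeR adjusted p = 0.702), with an interval of -0.14 to 0.075.

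Cdk5 and both of its activators had lower fitted levels after lemborexant. Cdk5, the kinase subunit, had 105, 125 and 146 CPM in lemborexant libraries, against 128, 140 and 205 CPM in vehicle libraries. Of the 10 lemborexant libraries 5 lay below the lowest vehicle library, and the vehicle group was widened upward by libraries 4 and 5, at 205 and 195 CPM. The means were 128 ± 13.3 and 152 ± 28.3 CPM in lemborexant and vehicle libraries, a log2 change of -0.24 ± 0.094 (edgeR adjusted p = 0.118). For Cdk5 and both activators, the highest vehicle values were those of libraries 3, 4 and 5, which had under 12% long transcripts. Cdk5 averaged 170 ± 38.0 CPM in the 4 libraries under 12% and 132 ± 11.8 CPM in the other 15. Cdk5r1 averaged 57.8 ± 10.6 and 42.9 ± 5.46 CPM, and Cdk5r2 10.8 ± 2.46 and 8.51 ± 1.33 CPM. Lemborexant 6, also under 12%, held 122, 44.4 and 7.21 CPM of Cdk5, Cdk5r1 and Cdk5r2.

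Cdk5r1, the gene of p35, had 29.0, 42.3 and 46.9 CPM in lemborexant libraries, against 37.9, 51.2 and 70.3 CPM in vehicle libraries. Lemborexant 7, at 29.0 CPM, was the only one of its group below the vehicle range, while 5 vehicle libraries lay above all lemborexant libraries. The log2 change was -0.29 ± 0.11 (edgeR adjusted p = 0.105).

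Cdk5r2, the gene of p39, had 6.01, 7.87 and 9.83 CPM in lemborexant libraries, against 7.91, 9.91 and 12.8 CPM in vehicle libraries. Again 5 of 10 lemborexant libraries lay below every vehicle library. The log2 change was -0.33 ± 0.11 (edgeR adjusted p = 0.0912, DESeq2 adjusted p = 0.0465), at 161 to 294 estimated reads per library.

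The sign of these 3 changes depended on which libraries were used and, for Cdk5, on the scale. In the 5 libraries numbered 859 to 933 (3 lemborexant and 2 vehicle) the log2 change was 0.039 for Cdk5, 0.11 for Cdk5r1 and 0.075 for Cdk5r2, each with edgeR adjusted p = 0.9996. In the 14 libraries numbered 1064 to 1602 (7 of each treatment) it was -0.32, -0.39 and -0.48, with edgeR adjusted p = 0.109, 0.0858 and 0.0769. On log2(TPM + 1), where the median change of all genes was 0.18, it was 0.017, -0.055 and -0.082 (limma adjusted p = 0.897, 0.678 and 0.579). Within each number range all lemborexant libraries had lower numbers than all vehicle libraries. These were 859 to 907 against 921 to 933, and 1064 to 1525 against 1574 to 1602. Number order and treatment can therefore not be told apart within a range. Nor are the ranges independent, since lemborexant 8, 9 and 10 are nearly alike to lemborexant 3, 4 and 1.

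The 4 MARK genes did not share a direction. Mark4 had the largest fitted change of any member: 5.11, 6.43 and 8.78 CPM in lemborexant libraries, against 6.08, 9.10 and 11.2 CPM in vehicle libraries. Only 3 lemborexant libraries lay below the vehicle range, and the 3 vehicle libraries with under 12% long transcripts held the 3 highest values, 10.7 to 11.2 CPM. The log2 change was -0.46 ± 0.13 (edgeR adjusted p = 0.0602, DESeq2 adjusted p = 0.0183). It was -0.41 with the nearly alike pairs summed (edgeR adjusted p = 0.153) and -0.32 with the long-transcript share as a covariate (edgeR adjusted p = 0.0966). Without lemborexant 6 or without vehicle 8 it was -0.52 or -0.51 and passed the threshold (edgeR adjusted p = 0.0355 and 0.0287), in fits that called 5.95% and 6.62% of all genes. Mark4 had the fewest reads of the group, at 134 to 270 estimated reads per library.

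Mark1 was the one member with a higher fitted level at an unadjusted p under 0.05. It had 16.2, 20.9 and 27.5 CPM in lemborexant libraries, against 14.9, 17.8 and 22.1 CPM in vehicle libraries. The 2 lemborexant libraries above the vehicle range, 4 and 9, at 26.5 and 27.5 CPM, were a nearly alike pair. The log2 change was 0.24 ± 0.10 (edgeR adjusted p = 0.131), and 0.21 with the pairs summed (edgeR adjusted p = 0.271).

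Mark2 and Mark3 lay close to no change. Mark2 had 32.6, 43.1 and 51.9 CPM in lemborexant libraries, against 36.6, 42.8 and 53.7 CPM in vehicle libraries, a log2 change of -0.072 with a 95% interval of -0.27 to 0.12 (edgeR adjusted p = 0.643). Mark3 had 23.0, 30.2 and 40.1 CPM in lemborexant libraries, against 26.2, 30.2 and 36.6 CPM in vehicle libraries, a log2 change of 0.0057 with an interval of -0.19 to 0.20 (edgeR adjusted p = 0.977). For both, lemborexant libraries lay on each side of the vehicle median.

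Ttbk1, the tau-tubulin kinase of the group, had 10.4, 13.6 and 16.3 CPM in lemborexant libraries, against 9.10, 13.1 and 15.3 CPM in vehicle libraries. The 2 lowest vehicle values came from libraries 5 and 3 and the lowest lemborexant value from library 6, as for Gsk3b. The log2 change was 0.090 ± 0.10 (edgeR adjusted p = 0.598), with an interval of -0.12 to 0.30.

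**Figure D2:**
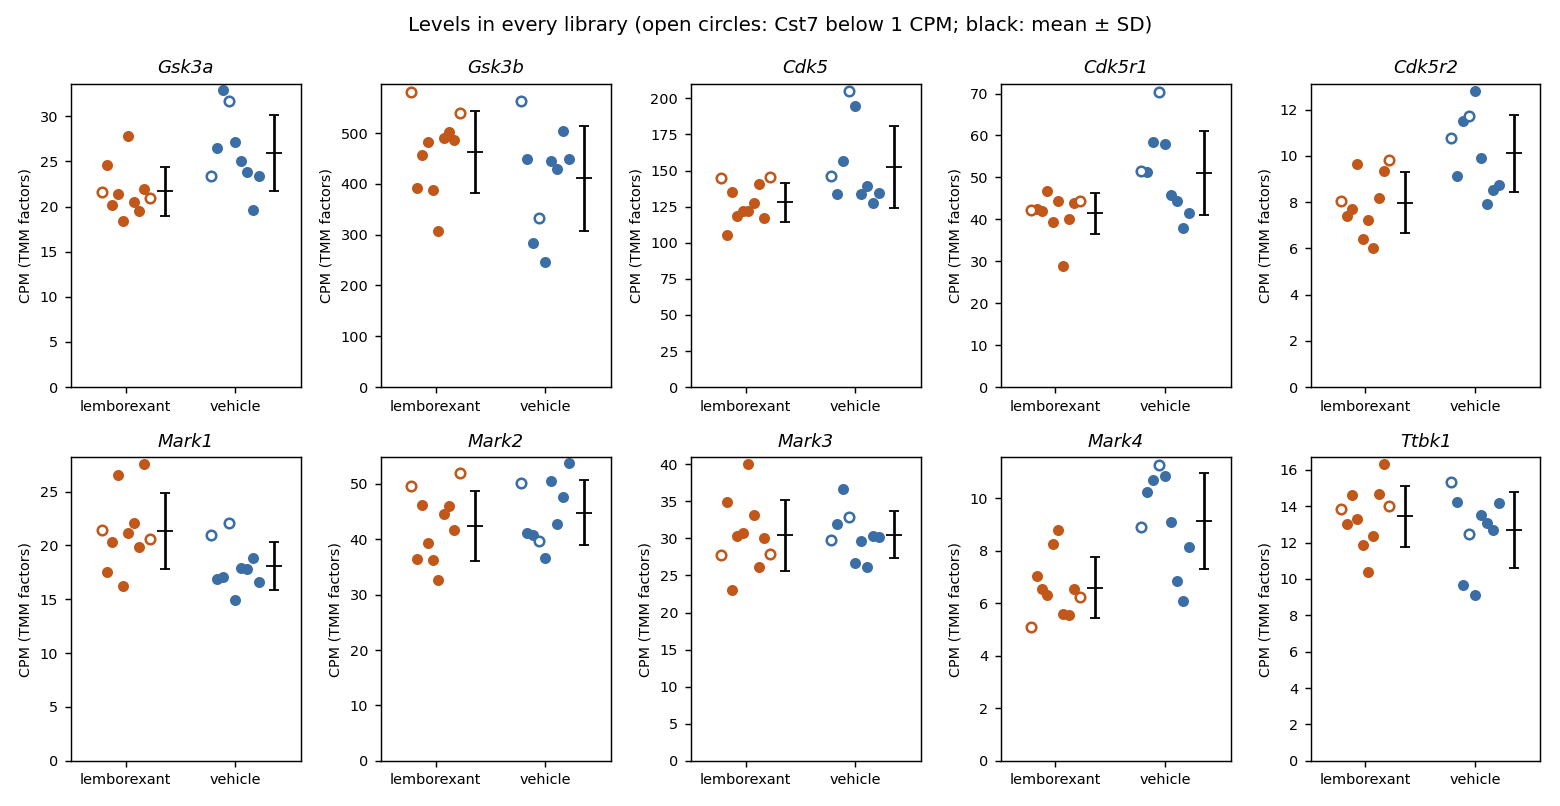
CPM with TMM factors of each member in every library, lemborexant left and vehicle right, with mean and SD in black (n = 10 and 9) and open circles for the 4 libraries with Cst7 below 1 CPM. The treatments overlap in all 10 panels, with Mark4 means of 6.60 CPM in lemborexant and 9.12 CPM in vehicle libraries.

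**Figure D3:**
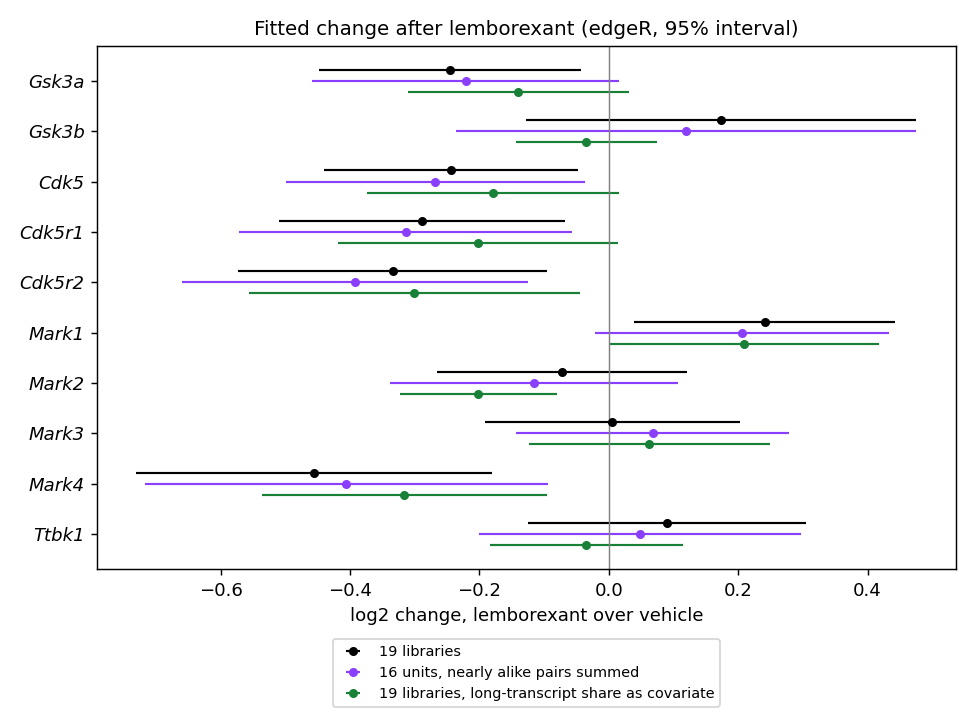
Fitted log2 change of each member, lemborexant over vehicle, with 95% intervals, from all 19 libraries (black), from 16 units with nearly alike pairs summed (purple) and with the long-transcript share as a covariate (green). Gsk3b has a wide interval around 0.17 in the fit of 19 libraries and a narrow one around -0.035 with the covariate, while Mark4 stays between -0.46 and -0.32.

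Some markers of tissue makeup differed between the treatments in the fit of all 19 libraries. With the nearly alike pairs summed edgeR called 0% of all genes, so no marker passed there. Of 15 hippocampal markers, 4 were called lower after lemborexant and none higher, with summed levels of 430 to 813 CPM in lemborexant and 723 to 985 CPM in vehicle libraries. Of 10 neuronal markers none was called, with sums of 3954 to 10594 CPM in lemborexant and 5379 to 10109 CPM in vehicle libraries, and no defining marker of the neuronal list was absent. Of 11 thalamic and hypothalamic markers tested, 5 were called higher after lemborexant, with summed levels of 114 to 3125 CPM in lemborexant and 93.2 to 165 CPM in vehicle libraries. Of 14 striatal markers tested all had positive fitted changes and 1 was called, with sums of 161 to 595 CPM in lemborexant and 135 to 173 CPM in vehicle libraries. Of 7 hepatocyte markers tested 5 were called lower, while the sums overlapped, at 954 to 12281 CPM in lemborexant and 840 to 9867 CPM in vehicle libraries. These sums include Ttr, which is also a marker of choroid plexus. The hepatocyte score (mean of the markers' log2 CPM, each less its mean over libraries) was -1.12 to -0.127 in lemborexant libraries. In vehicle libraries its median was -0.153, and its highest values were 6.49 in vehicle 7 and 1.79 in vehicle 5. A striatal score made in the same way was 1.56 in lemborexant 7 and 1.41 and 1.39 in lemborexant 4 and 9, a nearly alike pair. It was at most 0.270 in the other lemborexant libraries. The thalamic and hypothalamic score was 3.78 in lemborexant 7 and at most 1.13 in the others of its group, against -0.989 to -0.312 in vehicle libraries. With the hippocampal score as a covariate edgeR called 0% of genes, against 2.61% without it. The hippocampal score did not overlap between the treatments, at -1.26 to 0.410 in lemborexant and 0.415 to 0.763 in vehicle libraries. This fit therefore cannot tell the score apart from treatment, and the loss of calls decides nothing about tissue makeup. The part of tissue makeup in the members' values was not tested beyond this covariate. In bulk tissue, fewer cells of a type and less RNA per cell cannot be told apart.

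Ratios between members within a library do not depend on how libraries are scaled. The ratio of Gsk3a to Gsk3b in TPM had a lowest, median and highest value of 0.139, 0.165 and 0.359 in lemborexant libraries, against 0.142, 0.212 and 0.439 in vehicle libraries, a log2 difference of -0.46 (exact two-sided permutation test, p = 0.0715, 0.214 after adjustment over 6 ratios). It averaged 0.398 in the 4 libraries with a long-transcript share under 12% and 0.176 in the other 15, and without those 4 libraries the log2 difference between the treatments was -0.19 (exact permutation p = 0.160). The ratio of Mark4 to Mark2 had 0.105, 0.162 and 0.301 in lemborexant libraries, against 0.135, 0.206 and 0.353 in vehicle libraries. Its log2 difference was -0.43 (exact permutation p = 0.0453, adjusted 0.214). This ratio too was higher in the 4 libraries under 12%, at a mean of 0.310 against 0.177 in the other 15. Without those 4 libraries its log2 difference was -0.30 (exact permutation p = 0.110). With CPM in place of TPM, in all libraries, it was -0.38 (exact permutation p = 0.0814). The ranges of both ratios overlapped between the treatments. The ratio of Mark1 to Mark3 averaged 0.300 ± 0.0694 in lemborexant and 0.253 ± 0.0366 in vehicle libraries (log2 difference 0.22, exact permutation p = 0.110, adjusted 0.219). With the values of the nearly alike pairs averaged, the log2 differences were -0.37 for Gsk3a to Gsk3b, -0.33 for Mark4 to Mark2 and 0.11 for Mark1 to Mark3 (exact permutation p = 0.207, 0.149 and 0.416).

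The ratios of the activators to CDK5 differed between the treatments by less than their spread among libraries. Cdk5r1 was 0.118 ± 0.0193 of Cdk5 in lemborexant and 0.124 ± 0.0140 in vehicle libraries, a log2 difference of -0.077 (exact permutation p = 0.439, adjusted 0.527). Cdk5r2 was 0.0404 ± 0.0077 of Cdk5 in lemborexant and 0.0434 ± 0.0045 in vehicle libraries, a log2 difference of -0.12 (exact permutation p = 0.256, adjusted 0.383). Cdk5r2 was 0.342 ± 0.0354 of Cdk5r1 in lemborexant and 0.352 ± 0.0349 in vehicle libraries, a log2 difference of -0.041 (exact permutation p = 0.553, adjusted 0.553). None of the 6 ratios passed 0.05 after adjustment, and none did under any of the 27 alternatives run for them.

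The level of Gsk3b followed the share of reads on long transcripts more closely than that of any other member. The share was taken over 2230 of 11683 protein-coding genes, those with an effective length over 4000 bases, with the members left out. Over 16 units, with nearly alike pairs averaged, log2 CPM of Gsk3b had a Pearson r of 0.97 and a Spearman rho of 0.91 with the share (permutation test, p = 1e-05 for each, the smallest that 100000 permutations give; adjusted over 10 members 5e-05 and 0.0001). Without the 2 units farthest from the median share r was 0.94, and within the 12 units at or over 12% it was 0.85 (permutation p adjusted 0.0069). Among all 19105 genes this r ranked 20, while the median gene had an r of 0.03 and 1.91% of genes had one of at least 0.9. The genes ranked have all lengths and include those whose reads make up the share. Whether this r is unusual among genes of like length was not tested. The mean effective length of Gsk3b was 7041 bases.

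Ttbk1, with a length of 7134 bases, had an r of 0.88 and a rho of 0.77 over the 16 units (adjusted permutation p = 5e-05 and 0.00355), 0.74 without the 2 farthest units and 0.58 within the 12 units (adjusted permutation p = 0.164). Mark2, with 3169 bases, had an r of 0.68 (adjusted permutation p = 0.00768), 0.71 without the 2 farthest and 0.58 within the 12 units (adjusted permutation p = 0.164). For these 2 genes the relation passed 0.05 over all units and not within the 12.

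Mark4 and Gsk3a ran the other way. Mark4, with 2845 bases, had an r of -0.71 over the 16 units (adjusted permutation p = 0.00683), and Gsk3a, with 1867 bases, had -0.68 (adjusted permutation p = 0.00768). Without the 2 units farthest from the median share, r was -0.58 for both genes. Within the 12 units at or over 12% the values were -0.34 and -0.047 (adjusted permutation p = 0.392 and 0.886), and neither passed 0.05 there. Cdk5r1, with 3689 bases, had -0.54 (adjusted permutation p = 0.0496) and Cdk5, with 1347 bases, -0.52 (adjusted permutation p = 0.0526) over all units, with 0.15 and 0.38 within the 12 (adjusted permutation p = 0.715 and 0.373). The remaining members, Cdk5r2, Mark1 and Mark3, with 2086, 4010 and 1686 bases, had values of -0.35, 0.35 and -0.34, each with an adjusted permutation p of 0.194. Length did not order the members throughout, since Cdk5r1 is longer than Mark2 and had a negative r. The share itself averaged 14.9% ± 1.77 in lemborexant and 13.3% ± 2.47 in vehicle libraries (exact permutation p = 0.126, or 0.319 with pairs averaged).

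**Figure D4:**
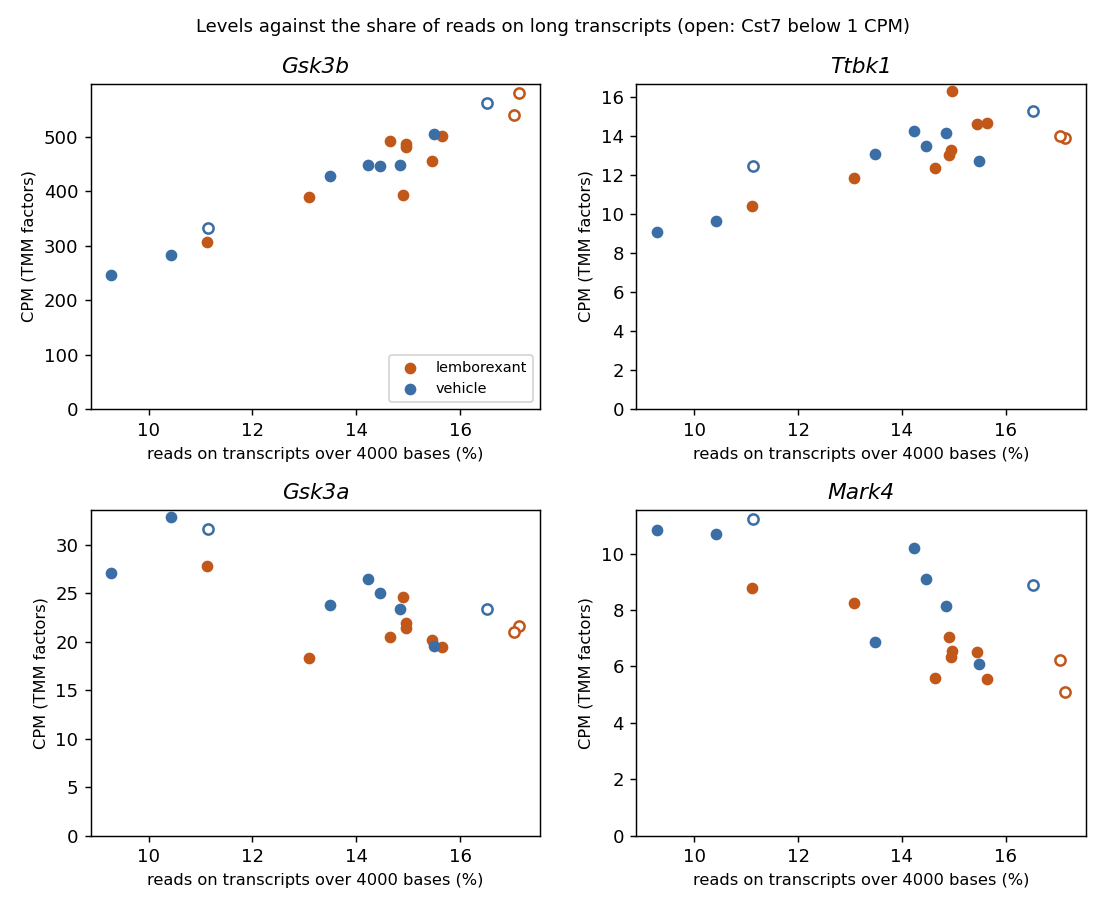
CPM of Gsk3b, Ttbk1, Gsk3a and Mark4 in every library against the percentage of reads on transcripts over 4000 bases, lemborexant in orange and vehicle in blue, open for Cst7 below 1 CPM. Gsk3b lies close to a rising line (r = 0.97 over 16 units) that holds both treatments, while Gsk3a and Mark4 are high in the 4 libraries under 12%.

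Between libraries, Gsk3b and Ttbk1 were the member pair with the highest Pearson r of log2 CPM, 0.89 over the 16 units (Spearman rho 0.73), given as a description since all genes of a library share its composition. By Spearman rho the highest pair was Cdk5r1 and Cdk5r2, at 0.85. The activators Cdk5r1 and Cdk5r2 had a Pearson r of 0.86, Cdk5r1 and Mark4 0.81, and Gsk3a had 0.79 with each of Cdk5r1 and Mark4. Cdk5 had 0.75 with Cdk5r2 and 0.72 with Cdk5r1. Over the same units the genes outside the group with the pattern most like Gsk3b were Wdfy3 and Ank3 (Pearson r = 0.98 and 0.97), and those most like Cdk5 were Klhdc2 and Uchl5 (0.98 for both). Most like Ttbk1 were Tmem178b and Cd47 (0.94 for both), most like Gsk3a Ythdf1 and Suds3 (0.95 and 0.94), and Thy1 was like Cdk5r1 (0.94). Most like Cdk5r2 were mt-Tp and Slc25a26 (0.91 for both), most like Mark4 Usp39 and Serbp1 (0.92 and 0.90), and most like Mark2 Ppp1r10 and Zfp280b (0.93 and 0.92). The likeness was lower for Mark3, to Dennd5a and Nploc4 (0.88 and 0.86), and for Mark1, to Cpne5 and Tmem132d (0.85 and 0.84).

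The 15 libraries with Cst7 of at least 1 CPM were set against the 4 below 1 CPM, with treatment in the fit. These classes rest on a measured gene and not on a label, and they hold 8 lemborexant and 7 vehicle libraries against 2 and 2, of which lemborexant 1 and 10 are a nearly alike pair. The classes differed widely outside the kinases. Gfap, a gene of reactive astrocytes, had 3091 to 8616 CPM in the 15 libraries against 429 to 576 CPM in the 4, and Mapt, the tau gene, had 555 to 1051 CPM against 317 to 464 CPM. All 10 markers of disease-associated microglia, among them Cst7 itself, were called higher, with sums of 431 to 2092 CPM in the 15 libraries and 125 to 164 CPM in the 4. The call of Cst7 and its part of the sums follow from how the classes were made. Of 10 neuronal markers 5 were called lower and none higher, with sums of 3954 to 8854 CPM against 10058 to 10594 CPM.

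No tau kinase member passed the threshold between these classes, in a fit that called 19.6% of all genes (edgeR, adjusted p under 0.05), and none passed with DESeq2, which called 24.5% of all genes. At an unadjusted p under 0.05 stood 1 member, Cdk5, against 32.5% of all genes. The ranges of no member were separate, while those of 8.61% of genes were. The median fitted log2 difference was -0.16 over the members and -0.00305 over all genes. With the nearly alike pairs summed again no member passed, where 10.2% of all genes did.

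Cdk5 had 105, 134 and 195 CPM (lowest, median and highest) in the 15 libraries with Cst7, against 145 and 146 CPM in lemborexant 1 and 10 and 146 and 205 CPM in vehicle 1 and 4. Of the 15 libraries 13 lay below all 4 of the others, and the 2 exceptions were vehicle 3 and 5. The log2 difference was -0.25 ± 0.10 (edgeR adjusted p = 0.0889), and Cdk5 passed without vehicle 5 (edgeR adjusted p = 0.0246, with 20.3% of genes called) or vehicle 1 (edgeR adjusted p = 0.0471, with 17.7% called). Over leaving out each library in turn the difference lay between -0.32 and -0.16, with edgeR adjusted p from 0.0246 to 0.326, and the smallest difference and the highest p were those without vehicle 4. With the long-transcript share as a covariate it was -0.34 (edgeR adjusted p = 0.00217, with 26.8% of genes called), and -0.35 with the pairs summed as well (edgeR adjusted p = 0.00975, with 18% called).

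Cdk5r1 had 29.0, 43.9 and 58.4 CPM in the 15 libraries, against 42.3 and 44.3 CPM in lemborexant 1 and 10 and 51.6 and 70.3 CPM in vehicle 1 and 4. The classes overlapped, with 6 of the 15 below the lowest of the 4. The log2 difference was -0.20 ± 0.12 (edgeR adjusted p = 0.257), and it was -0.32 with the share as a covariate (edgeR adjusted p = 0.0203). Cdk5r2 had a log2 difference of -0.20 ± 0.13 (edgeR adjusted p = 0.312), and -0.27 with the share as a covariate (edgeR adjusted p = 0.141).

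Gsk3b had 247, 448 and 504 CPM in the 15 libraries, against 580 and 540 CPM in lemborexant 1 and 10 and 562 and 332 CPM in vehicle 1 and 4. The 3 highest of all 19 values were in the libraries with almost no Cst7, and the fourth of these, vehicle 4, had a long-transcript share of 11.1%. The log2 difference was -0.26 ± 0.17 (edgeR adjusted p = 0.291). It was 0.00072 with the share as a covariate (edgeR adjusted p = 0.996), with an interval of -0.13 to 0.13, and -0.30 without the 4 libraries under 12% (edgeR adjusted p = 0.0169, with 24.6% of genes called), a setting that leaves 3 libraries with Cst7 below 1 CPM. Lemborexant 1 and 10 of these 3 are a nearly alike pair, and with the pairs summed as well Gsk3b did not pass (log2 difference -0.32, edgeR adjusted p = 0.0783, with 10.4% of genes called).

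The other members stood closer to no difference. Mark1 averaged 19.4 ± 3.65 CPM in the 15 libraries and 21.3 ± 0.64 CPM in the 4, with 11 of the 15 below all 4, a log2 difference of -0.15 (edgeR adjusted p = 0.388). With the hippocampal score as a covariate it was -0.35 (edgeR adjusted p = 0.0304, with 9.61% of genes called). Mark2 had a log2 difference of -0.17, Ttbk1 of -0.11, Gsk3a of -0.034, Mark4 of 0.037 and Mark3 of 0.058, with edgeR adjusted p between 0.270 and 0.903. The interval of Mark4, -0.30 to 0.38, was the widest of these.

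**Figure D5:**
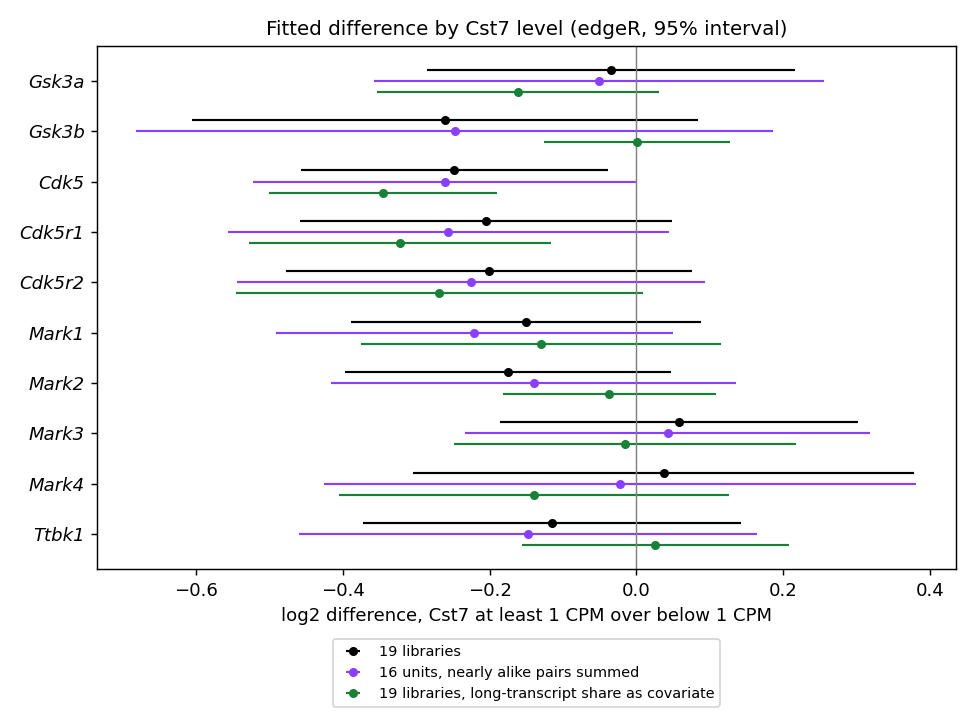
Fitted log2 difference of each member, libraries with Cst7 of at least 1 CPM over those below 1 CPM, with 95% intervals, from all 19 libraries (black), from 16 units (purple) and with the long-transcript share as a covariate (green). Cdk5 lies at -0.25, -0.26 and -0.34, and Gsk3b at 0.00072 with the covariate.

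The change after lemborexant did not differ detectably between the Cst7 classes. No member passed in the interaction of treatment and class, and 0.0105% of all genes did (edgeR). No member had an unadjusted p under 0.05, against 5.18% of genes, and DESeq2, which called 0.178% of genes, called no member. The intervals were wide, such as -0.22 to 1.12 for Mark4 and -0.92 to 0.52 for Gsk3b on the log2 scale, with 2 libraries of each treatment in the smaller class. Without the 4 libraries below 1 CPM of Cst7 the treatment changes were -0.37 for Mark4, 0.32 for Mark1, -0.34 for Cdk5r2 and -0.23 for Cdk5, with edgeR adjusted p = 0.145, 0.1003, 0.140 and 0.154.

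Among 81 other genes of tau phosphorylation, 3 passed after lemborexant, in a fit that called 2.61% of all genes. One was Prkacb, a catalytic subunit of protein kinase A, among 23 other tau kinases: it averaged 241 ± 58.5 CPM in lemborexant and 155 ± 38.4 CPM in vehicle libraries, a log2 change of 0.64 ± 0.16 (edgeR adjusted p = 0.0421). Ppp3cb, a catalytic subunit of calcineurin, was the one called of 18 tau phosphatase genes, at 81.6 ± 11.3 CPM in lemborexant and 113 ± 22.3 CPM in vehicle libraries, a log2 change of -0.46 ± 0.11 (edgeR adjusted p = 0.0347). Frat2, a GSK3-binding protein gene, was the one called of 22 upstream regulators, at 0.93 ± 0.18 and 1.72 ± 0.77 CPM in lemborexant and vehicle libraries, a log2 change of -0.87 ± 0.23 (edgeR adjusted p = 0.0439). None of the 3 passed with the nearly alike pairs summed (edgeR adjusted p = 0.133, 0.0927 and 0.120), and DESeq2, which called 9.48% of all genes, called 13 of the 81.

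Of the 18 phosphatase genes, 17 had negative fitted changes, with a median of -0.21 against 0.03 over all genes. The count of signs is a description and not a test, since all genes of a library share its composition. Of the 18, 1 passed the test, and none passed with the nearly alike pairs summed. Ppp3ca, another calcineurin subunit, averaged 560 ± 204 CPM in lemborexant and 881 ± 115 CPM in vehicle libraries (log2 change -0.64, edgeR adjusted p = 0.0591). With the hippocampal score as a covariate, which did not overlap between the treatments, the change of Ppp3ca was 0.012. Ppp1cc, a catalytic subunit of protein phosphatase 1, had a log2 change of -0.45 (edgeR adjusted p = 0.0612). Among the other kinases Ttbk2, the paralogue of Ttbk1, averaged 43.6 ± 4.09 CPM in lemborexant and 36.2 ± 4.51 CPM in vehicle libraries (log2 change 0.28, edgeR adjusted p = 0.0601), and Camk2b had -0.51 (edgeR adjusted p = 0.0913). Among the regulators Prkaa2, an AMP-activated kinase subunit, had 0.39 (edgeR adjusted p = 0.108). Of 18 genes of tau and other kinase substrates none passed (7 at an unadjusted p under 0.05). The 3 with the smallest p were Dcx at 0.70, Eif2b5 at -0.39 and Nfatc4 at 1.07 (edgeR adjusted p = 0.0594, 0.0696 and 0.0751).

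Between the Cst7 classes 20 of these 81 genes passed in a fit that called 19.6% of all genes, 7 higher and 13 lower in the libraries with Cst7. With the nearly alike pairs summed 9 passed, 4 higher and 5 lower, where 10.2% of all genes were called. Without lemborexant 1 and 10, a nearly alike pair of the smaller class, 4 passed, 3 higher and 1 lower (4.47% of all genes). The counts and values that follow are from the fit of all 19 libraries. The other kinases gave 7 of 23: Cdk1, a cell-cycle kinase at 1.86 CPM in the 15 libraries and 0.17 CPM in the 4, and Abl1 were higher, and Mapk10, Brsk2, Camk2a and Camk2b were among those lower. Camk2b (edgeR adjusted p = 0.0479) no longer passed in 13 of the 19 fits that left out 1 library. Camk2a, a calmodulin-dependent kinase of excitatory neurons, averaged 1526 ± 624 CPM in the 15 libraries and 2702 ± 158 CPM in the 4 (log2 difference -0.90, edgeR adjusted p = 0.0277). The phosphatases gave 7 of 18, with Ppp2r1b higher and Ppp2r1a, Ppp2r2b, Ppp2r2c, Ppp3ca, Ppp3r1 and Ppp1cb lower.

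Of the 22 regulators 2 passed. Capn2, the gene of a calpain, the protease family that cleaves p35, averaged 59.1 ± 8.09 CPM in the 15 libraries and 38.5 ± 2.15 CPM in the 4, a log2 difference of 0.62 ± 0.11 (edgeR adjusted p = 0.00041). Frat1, another GSK3-binding protein gene, averaged 67.2 ± 13.3 CPM in the 15 libraries and 109.5 ± 15.3 CPM in the 4, a log2 difference of -0.69 ± 0.13 (edgeR adjusted p = 0.000996). The ranges of both genes were separate between the classes, since the lowest Capn2 value of the 15 was 49.1 CPM against a highest of 41.6 CPM in the 4, and the highest Frat1 value of the 15 was 94.6 CPM against a lowest of 96.8 CPM in the 4. Of the substrates 4 of 18 passed: Mapt (log2 difference 0.94 ± 0.17, edgeR adjusted p = 0.00072), Pxn and Ppp1r1b were higher, and Dab1 was lower. Whether reads of the human tau transgene were counted under Mapt was not tested.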

How the data were processed

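For each of 19 cortex libraries the authors deposited a table of 55487 genes. Its columns, per the file headers, are effective length, TPM and NumReads, an estimated count that need not be whole. The submitters' processing notes name bcl2fastq, DRAGEN 3.9.3-8 and GRCm38. The annotation release, strand and filters used are not given in the sources at hand. GENCODE's GRCm38 annotation gave a symbol for 55141 identifiers. Groups came from the treatment labels; replicates were numbered within groups, since the labels hold library numbers but no replicate numbers. The design text speaks of triplicates and the labels give 10 and 9 libraries.

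Estimated counts were rounded and tested with edgeR 4.0.16's quasi-likelihood test (robust, TMM factors, expression filter by treatment; R 4.3.3), two-sided, Benjamini-Hochberg adjusted over 19105 genes at 0.05, with treatment alone, with treatment and Cst7 class, or with their interaction. An SE is the log2 change divided by the square root of F, and log2 CPM used a prior count of 2. The median change of all genes was 0.03 on this scale and 0.18 on log2(TPM + 1). Ratios were tested by exact permutation over 92378 splits. Relations with the long-transcript share used 16 units and 100000 permutations; the share is over protein-coding genes averaging at least 5 CPM. Likeness was computed over genes with at least 5 CPM on average.

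The members, the gene lists and the tests were chosen with earlier results of these data known. Named are all 10 members, each called gene of the 4 pathway lists (at most 8) or, where fewer than 3 passed after lemborexant, the 3 with the smallest p, and 2 like genes for each member. The results of 3 genes that this rule names are not reported here. Alternatives were no expression filter, RLE factors, DESeq2 1.42.0, limma 3.58.1 with a pseudocount of 1 or 0.1 on TPM (genes averaging at least 1 TPM), summed pairs, and the library number range or the hippocampal marker score in the model. Each library, the libraries with Cst7 below 1 CPM, and lemborexant 7 with vehicle 7 were also left out. Pairs were found by a chi-square over genes of 20 reads or more. Those on the long-transcript share, on leaving out both libraries of a pair and within number ranges were chosen after seeing the data. The fits were tested on simulated counts. With 134 or more reads for each member in each library, library-to-library spread sets the precision more than counting does.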

Additional observations from a re-analysis of the deposited data

Results flagged for a closer look

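Of 32 groups of values searched for a library far from the rest, 2 had one, where chance gives about 1 in 20 groups. Cdk5r1 was lowest among the lemborexant libraries in lemborexant 7, at 29.0 CPM, with a gap to the next library of 0.643 of the whole range of log2 CPM. The same library had the highest summed level of thalamic and hypothalamic markers, 3125 CPM, where vehicle libraries had 93.2 to 165 CPM. Without lemborexant 7 and vehicle 7 the log2 change of Cdk5r1 was -0.26 (edgeR adjusted p = 0.142). The ratio of Mark1 to Mark3 was highest among the vehicle libraries in vehicle 1, at 0.333, with a gap of 0.504 of the range of the log2 ratio. Vehicle 1 is one of the libraries with almost no Cst7, and without it the log2 difference of the ratio was 0.27 (exact permutation p = 0.0535, adjusted over 6 ratios 0.107). What sets these libraries apart was not tested.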

How the results depend on the processing

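No paired analysis was possible because the labels give no replicate numbers. Over 39 alternatives the members' treatment changes gave 390 values, of which 361 kept their sign and their side of the threshold, 25 changed sign and 4 passed it. For the Cst7 classes 328 of 350 values over 35 alternatives did so, 14 changed sign and 8 passed, and all 162 ratio values did so. Of the treatment values of the other named pathway genes, 349 did so, 2 changed sign, 35 newly passed and 80 no longer passed; of 700 for the Cst7 classes 555 did so and 145 no longer passed.

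DESeq2 called 2 members after lemborexant, and leaving out 1 library gave 0 to 1. The count of all genes called after lemborexant, 498, was 254 without the expression filter, 1811 with DESeq2, 118 and 26 with limma on log2(TPM + 1) and log2(TPM + 0.1), 294 with the number range as a covariate, 307 without lemborexant 7 and vehicle 7, 248 with the long-transcript share, 220 without lemborexant 3 and 8, 1580 without lemborexant 1 and 10, 8 in libraries 1064 to 1602 and 31 to 1274 without 1 library. It was 0 with pairs summed (also with the share, without libraries under 12% or without Cst7 below 1), with the hippocampal score, without libraries under 12%, without lemborexant 4 and 9 and in libraries 859 to 933. The 3 other pathway genes became 1 without the filter, with the number range or without lemborexant 7 and vehicle 7, 13 with DESeq2, 7 without Cst7 below 1, 14 without lemborexant 1 and 10, 0 to 9 without 1 library, and 0 with limma on TPM, without lemborexant 3 and 8, in libraries 1064 to 1602 and in each setting that called 0 of all genes. The cause was not tested, beyond the smaller number of libraries in some settings.

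For the Cst7 classes 1 member passed with the hippocampal score, 2 with the share (with or without pairs summed), 1 without libraries under 12%, and 0 to 1 without 1 library. The 3751 genes called were 2252 and 2274 with limma on log2(TPM + 1) and log2(TPM + 0.1), 1967 with pairs summed, 2014 with pairs summed and libraries under 12% out, 1836 with the hippocampal score, 855 without lemborexant 1 and 10 and 1984 to 4156 without 1 library.

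Treatment changes that turned sign were those of Cdk5 (0.017 and 0.018 with limma at pseudocounts of 1 and 0.1, 0.039 in libraries 859 to 933), Cdk5r1 (0.11) and Cdk5r2 (0.075) in libraries 859 to 933, Gsk3b (-0.035 with the share, -0.033 with pairs summed too, -0.0091 with pairs summed and libraries under 12% out), Mark2 (0.21 and 0.22 with limma at the 2 pseudocounts, 0.070 with the hippocampal score) and Ttbk1 (-0.034 with the share, -0.048 with pairs summed too, -0.028 with pairs summed and libraries under 12% out). Mark3 had -0.0040 without the filter, -0.029 without lemborexant 7 and vehicle 7, -0.22 with the hippocampal score, -0.0091 without libraries under 12%, -0.11 in libraries 859 to 933 and -0.049 to 0.047 without 1 library. Camk2b had 0.10 and Ppp3ca 0.012 with the hippocampal score, a covariate whose values did not overlap between the treatments. Between the Cst7 classes Gsk3b had 0.00072 and Ttbk1 0.026 with the share, and Mark2 had 0.00092 without lemborexant 1 and 10. Mark3 had -0.10 with the hippocampal score, -0.015 with the share, -0.0069 with pairs summed too and -0.044 without lemborexant 1 and 10. Mark4 had -0.022 with pairs summed, -0.0046 with the hippocampal score, -0.14 with the share, -0.17 with both, -0.18 without lemborexant 1 and 10 and -0.068 to 0.16 without 1 library, and Gsk3a -0.086 to 0.064 without 1 library.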
